A study of Mus musculus with 6 samples.

Results

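The genes described here are 10 members of the BCL2 family, the proteins that decide whether a cell keeps its mitochondria intact or opens them and dies. They were chosen by name, and a probe set was counted where the platform annotation gave it exactly 1 gene symbol and that symbol was a member's. This found 9 of the 10 genes among 18193 genes named on the arrays, in 29 probe sets of 45101. Bax was not analysed here. RNA came from cryosections of the parietal bones of the calvaria, which roof the skull, in mice aged 10 days. Wild-type mice served as controls, and their littermates, called 13del-tg, expressed a Col10a1-13del transgene and are labelled as having bone overgrowth. Each genotype has 3 samples labelled as biological replicates. The labels do not give the promoter of the transgene, nor whether a sample is 1 animal or a pool. The labels give no other treatment.

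Proteins of the BCL2 family act at the outer membrane of mitochondria. BAX and BAK, the effectors, form pores that release cytochrome c, which assembles the apoptosome and starts the caspases. BCL2, BCL-XL and MCL1 hold them back, and the BH3-only proteins (BID, BIM, BAD, PUMA and NOXA) sense damage, lost growth factor or endoplasmic reticulum stress and tip this balance towards death. In bone these genes are known for setting how long osteoblasts, osteoclasts and marrow cells live. A misfolding collagen is known to stress the endoplasmic reticulum, and ATF4 and CHOP, factors of the stress response, are known to act on some BH3-only genes. Many of these proteins are set by cleavage, phosphorylation or degradation, which RNA does not show.

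The columns deposited as control 1 and 13del-tg 1 held the same value for 45101 of 45101 probe sets, whereas other pairs of arrays shared 0.115% to 0.213% of values. This 1 array, called the shared array, is therefore shown apart and belongs to neither group, and the comparison set 13del-tg 2 and 3 against controls 2 and 3. Signals are the deposited intensities on a linear scale. Differences are means of log2(signal + 16) in 13del-tg minus those in controls, tested with limma over the 27022 probe sets whose mean level reached the 40th percentile, which corresponds to 61.9 in signal. Differences on this scale understate those of dim probe sets. Of the 29 member probe sets, 25 passed this filter, from 9 genes. With 2 arrays a group, an exact two-sided permutation test of any single value cannot go below p = 0.333. Probe sets differ in how well they bind, so their levels are not compared with each other.

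Several features of the arrays bear on what follows. Col10a1 had signals of 149.8 and 158.2 in the controls, 15688.7 and 11584.4 in 13del-tg and 152.2 on the shared array (log2 difference 6.31, SE 0.23, limma adjusted p = 9.45e-05), so the shared array goes against its 13del-tg label for this gene. It passed under neither setting that counts the shared array as 13del-tg (4.20 as 13del-tg only, 4.21 under both labels). The osteoblast markers that define the tissue were present, with summed signals of 7 genes between 123078 and 152096 over both groups and 87606 on the shared array. Xist, the RNA that silences an X chromosome in females, had 15206.4 on 13del-tg 3 and 29.9 to 84.5 on the 4 other arrays, and the Y-linked Eif2s3y had 11.1 there and 1652.3 to 1910.2 elsewhere. Values without 13del-tg 3 therefore compare arrays with 1 pattern of these sex-linked genes.

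No BCL2 family gene passed the test: 0 of 25 probe sets had a limma adjusted p under 0.05, and only 1 reached that level before adjustment. Over all 27022 probe sets 0.0370% passed, 0.00740% higher and 0.0296% lower, and 5.14% reached it before adjustment, 1.42% higher and 3.72% lower. Of the members 11 were positive, against 41.4% of all probe sets, and 14 negative, against 58.6%. Differences ran from -0.94 (Bcl2l1) to 0.47 (Mcl1), with a median of -0.033 against -0.075 over all probe sets. In 4 of the 25 both 13del-tg arrays lay above both controls and in 3 below, 7 in all, where 35.6% of all probe sets had groups that did not overlap, 12.6% higher and 23.0% lower. The median standard error of these 25 was 0.32 on the log2 scale, so the precision limits what could be seen. The smallest adjusted p of any member was 0.88.

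**Figure D1:**
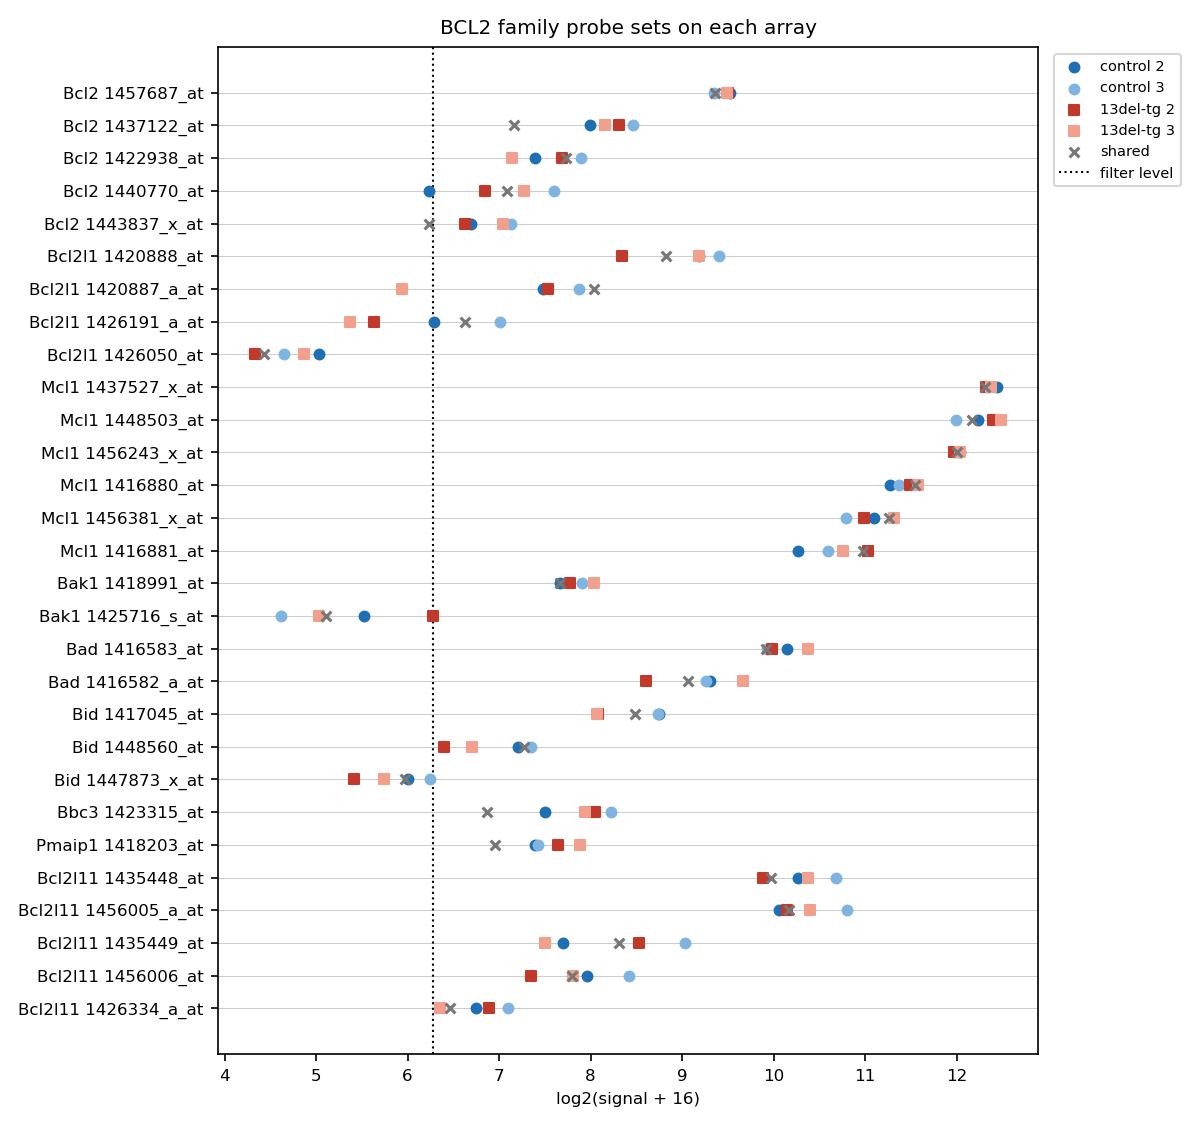
Level of each of the 29 BCL2 family probe sets on each array, as log2(signal + 16), with controls as circles, 13del-tg arrays as squares, the shared array as crosses and the filter level as a dotted line. Bid is the gene with both 13del-tg squares left of both control circles in all 3 of its probe sets, and most other rows overlap.

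Promoter sequences are shown for 3 BH3-only genes, Bid and Bcl2l11 because their probe sets leaned to lower values in 13del-tg, and Bbc3 as a gene that did not and that holds the same forkhead motif as Bcl2l11. These genes were picked after their values were seen. The sequences come from RefSeq in GRCm38.p6, from which 15 start sites of 9 members were read, Bax included and Pmaip1 not. Capitals mark the motifs searched on both strands in the 250 bases before each start: the TATA box (TATAAA), the GC box of SP1-like factors (GGGCGG), the CCAAT box (CCAAT), the E-box (CACGTG), the cyclic AMP element (TGACGTCA), the C/EBP and ATF element (TGATGNAAN), the forkhead element of FOXO factors (GTAAACA) and the GATA element (TGATAA). The first run is the 250 bases before the first Bcl2l11 start, at chr2:128125788-128126037 on the plus strand. The others are 30 bases each, from the minus strand at chr6:120916865-120916894 for Bid and from the plus strand at chr7:16310083-16310112 for Bbc3.
Bcl2l11: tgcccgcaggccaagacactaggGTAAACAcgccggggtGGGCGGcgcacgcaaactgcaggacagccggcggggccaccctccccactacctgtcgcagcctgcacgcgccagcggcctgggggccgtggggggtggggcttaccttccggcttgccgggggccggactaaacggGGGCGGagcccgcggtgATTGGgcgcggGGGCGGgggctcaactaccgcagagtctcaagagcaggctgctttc
Bid: cggaGGGCGGagcatccggaGGGCGGggct
Bbc3: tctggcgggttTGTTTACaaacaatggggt

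The forkhead element stood 221 to 227 bases before this Bcl2l11 start and, on the other strand, 161 to 167 bases before a Bbc3 start. It was in 2 of the 15 member windows and in 3.17% of 32851 windows of the same length. The Bid window held 3 GC boxes, of which the run above shows 2. GC boxes were in 10 of the 15 member windows, against 32.7% of all, and the C/EBP and ATF element was in 0 of 15, against 3.44% of all. The member windows held 47.6% to 81.6% G and C, against a median of 52.4% over all windows, so these shares are not alike in content. Some genes have several windows, and some Bbc3 windows overlap each other. The Bcl2l1 windows held none of the motifs. The GC box can overlap itself where runs of G and C repeat, as in Bbc3. A match describes letters only.

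Of the anti-apoptotic members, Mcl1, a short-lived protein that many cell types need to survive, was measured by 6 probe sets, all kept. Probe set 1416881_at had signals of 1215.0 on control 2 and 1526.1 on control 3, against 2084.3 on 13del-tg 2 and 1712.4 on 13del-tg 3. The groups did not overlap, and the difference was 0.47 (SE 0.23, 95% interval -0.059 to 0.99, limma adjusted p = 0.88). The shared array had 1994.9, inside the 13del-tg range. Probe set 1448503_at had 4795.8 and 4048.4 in controls, against 5377.4 and 5711.4 in 13del-tg, with 4598.6 on the shared array, which here lay inside the control range. Its difference was 0.33 (SE 0.19), and that of 1416880_at was 0.22 (SE 0.19), from 2449.8 and 2624.1 to 2857.2 and 3051.6. All 3 of these probe sets were higher on both 13del-tg arrays than on both controls without passing the test.

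The other 3 Mcl1 probe sets carry the suffix that the manufacturer gives to sets with probes that can bind other transcripts. They overlapped between groups, with differences of -0.033 (1437527_x_at), -0.013 (1456243_x_at) and 0.21 (1456381_x_at). For 1456243_x_at the 4 signals were 4180.9 and 4076.2 in controls, against 4003.1 and 4178.2 in 13del-tg. The probe sets of Mcl1 thus differed in sign, but the 2 negative differences were smaller than their SE of 0.18. In 3 of 6 both 13del-tg arrays were above both controls, as they were in 12.6% of all probe sets. Probe sets of 1 gene are not independent. Among all genes with 4 kept probe sets, the most for which this was counted, 67.8% had probe sets of both signs.

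Bcl2l1 encodes BCL-XL, which protects developing red cells, platelets and many other cells, and its RNA is also spliced to a short pro-death form. Its 2 kept probe sets had lower means in 13del-tg but did not agree on which array was low. Probe set 1420888_at had 564.0 and 662.5 in controls, 309.4 on 13del-tg 2 and 566.6 on 13del-tg 3, a difference of -0.53 (SE 0.33). Probe set 1420887_a_at had 162.0 and 218.5 in controls, 169.5 on 13del-tg 2 and 45.4 on 13del-tg 3, a difference of -0.94 (SE 0.54, limma adjusted p = 0.88). So the low value of the first came from 13del-tg 2 alone and that of the second from 13del-tg 3 alone. Leaving out 13del-tg 2 gave -0.11 for the first and -1.73 for the second, and leaving out 13del-tg 3 gave -0.95 and -0.14.

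A further Bcl2l1 probe set, 1426191_a_at, did not pass the filter, and its signals were 62.2 and 112.6 in controls, against 33.7 and 25.5 in 13del-tg, with no overlap. The fourth, 1426050_at, had 4.2 to 16.7 over these arrays, a level at which no order can be read. On the shared array the 4 probe sets had 437.1, 247.3, 82.9 and 5.5, in the order in which they are named here. It lay inside the 13del-tg range for 1420888_at and above all 4 other arrays for 1420887_a_at. Which splice form each probe set reads was not examined.

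Bcl2, the founder of the family, known for keeping lymphocytes and osteoblasts alive, was measured by 5 probe sets, all kept, and none separated the groups. Its brightest, 1457687_at, had 718.2 and 636.1 in controls, against 710.3 and 704.0 in 13del-tg, a difference of 0.064 (SE 0.24, 95% interval -0.48 to 0.61). The others lay between -0.23 (1422938_at) and 0.14 (1440770_at), 2 negative and 2 positive. Control 3 was above control 2 in 4 of the 5. The means of the brightest Bcl2 probe set were therefore close, but the interval of 1440770_at ran from -1.03 to 1.32, so large changes were not detectable there. The shared array was lowest of all arrays for 1437122_at, at 127.5 against 238.4 to 336.5, and for 1443837_x_at, at 59.2.

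Of the pore-forming effectors only Bak1 was measured, by 1 kept probe set. For 1418991_at the controls had 187.3 and 224.2 and 13del-tg had 202.8 and 246.4, which overlap (difference 0.12, SE 0.32, 95% interval -0.62 to 0.86, limma adjusted p = 0.97). The shared array had 186.9, just below control 2. The second Bak1 probe set, 1425716_s_at, had 8.6 to 61.8 and did not pass the filter. No change in Bak1 was detectable at this precision, and the interval would hold a change of up to 0.86.

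Among the BH3-only members, the probe sets of Bid pointed the same way. BID is cut by caspase-8 and carries the signal of death receptors to the mitochondria. Probe set 1417045_at had 413.1 on control 2 and 409.1 on control 3, against 254.2 on 13del-tg 2 and 253.8 on 13del-tg 3. Each group was tight, and the shared array lay between them at 341.6. The means were 411 ± 2.83 and 254 ± 0.283 (SD, n = 2 each), a fold of 1.58 for control over 13del-tg with the pseudocount, and the difference was -0.66 (SE 0.28, 95% interval -1.30 to -0.020). Its unadjusted limma p was 0.0448 and its adjusted p 0.88, so it did not pass.

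The second Bid probe set, 1448560_at, had 132.0 and 147.2 in controls, against 68.1 and 88.2 in 13del-tg, with 138.8 on the shared array, inside the control range. Its difference was -0.73 (SE 0.38, limma adjusted p = 0.88). The third, 1447873_x_at, lay below the filter with 48.4 and 60 against 26.8 and 37.5, again lower on both 13del-tg arrays. All 3 Bid probe sets were therefore lower on both 13del-tg arrays than on both controls. They read 1 RNA on the same arrays and are not replicates. Among the 3486 genes with 2 kept probe sets, 10.3% had both of them lower on both 13del-tg arrays. Leaving out any 1 array kept the difference of 1417045_at between -0.67 and -0.65 and that of 1448560_at between -0.89 and -0.58. With the shared array as a control they were -0.58 and -0.73, and as 13del-tg -0.53 and -0.49.

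**Figure D2:**
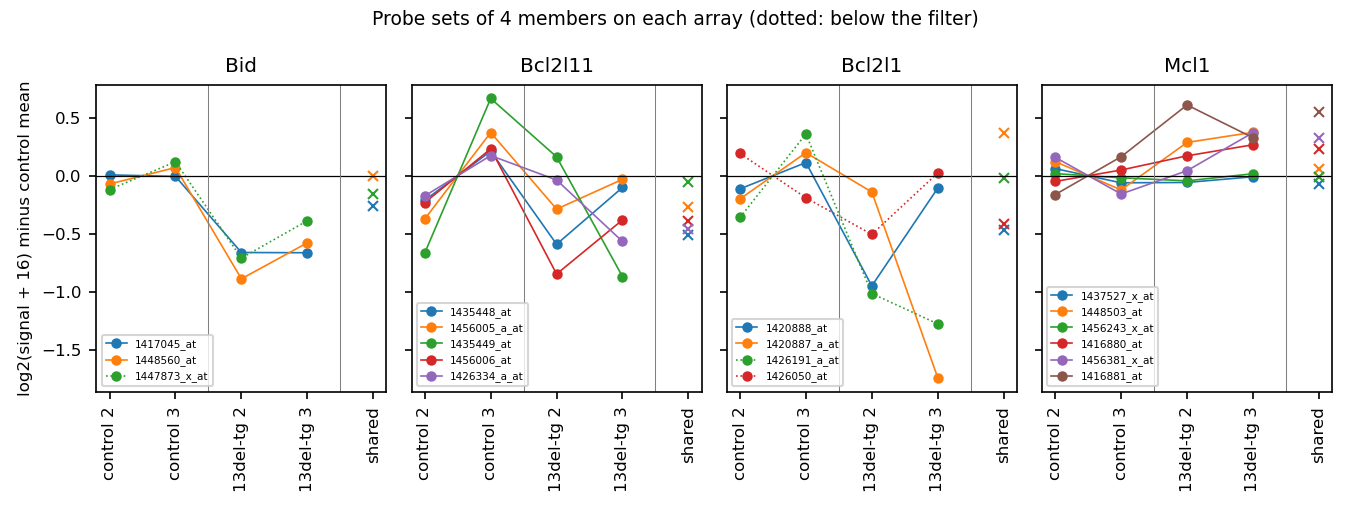
Probe sets of Bid, Bcl2l11, Bcl2l1 and Mcl1 on each array, as log2(signal + 16) minus the mean of controls 2 and 3, with the shared array as crosses at the right and dotted lines for probe sets below the filter. The 3 Bid lines step down together, the Bcl2l1 lines drop on different 13del-tg arrays, and the 5 Bcl2l11 lines all peak on control 3.

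Bcl2l11 encodes BIM, the main death signal after loss of growth factors and a known brake on the life span of osteoclasts and lymphocytes. All 5 of its kept probe sets had a negative difference, from -0.61 to -0.16, where 58.6% of all probe sets were negative. The 5 are from 1 gene on the same arrays and are not replicates. No share was counted for genes with 5 kept probe sets. Of the 5, 1 had both 13del-tg arrays below both controls, as had 23.0% of all probe sets. That one, 1456006_at, had 232.6 and 326.6 in controls, 146.5 and 208.3 in 13del-tg and 206.6 on the shared array (difference -0.61, SE 0.35, limma adjusted p = 0.88). The brightest, 1435448_at, had 1214.4 and 1633.1 in controls, against 930.8 and 1312.3 in 13del-tg, so 13del-tg 3 lay above control 2. Probe set 1435449_at had 192.5 on control 2 and 507.1 on control 3, with 353.4 and 165.0 in 13del-tg, which shows how wide the spread within a group was.

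Control 3 was above control 2 in 5 of 5 Bcl2l11 probe sets. Without control 3 the difference of 1456005_a_at was 0.21 and that of 1435449_at 0.31, and without 13del-tg 3 the latter was 0.16, so the direction of both turned when 1 array was left out. The direction of 1456005_a_at also turned, to 0.025, with arrays centred on their medians. The other 3 probe sets stayed negative under each alternative that was run. No Bcl2l11 probe set passed the test.

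Pmaip1, which encodes NOXA, the BH3-only protein that disables MCL1, had 152.0 and 156.1 in controls, against 183.8 and 220.7 in 13del-tg. The groups did not overlap, and the difference was 0.36 (SE 0.33, 95% interval -0.41 to 1.12, limma adjusted p = 0.90). The shared array had 107.7, below all 4, and counting it as 13del-tg left a difference of 0.084. Bbc3, which encodes PUMA, a target of p53 and of stress factors, had 165.7 and 284.1 in controls, against 249.1 and 229.8 in 13del-tg, so both 13del-tg arrays lay between the controls (difference 0.13, SE 0.35). The shared array was at 100.8, below all others, and as 13del-tg it turned the Bbc3 difference to -0.25.

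Bad, whose protein is held inactive by growth factor kinases, had 2 kept probe sets of opposite sign. Probe set 1416583_at had 1119.3 and 957.6 in controls, against 994.5 and 1314.6 in 13del-tg (0.14, SE 0.24). Probe set 1416582_a_at had 619.2 and 599.8 in controls, 372.3 on 13del-tg 2 and 794.0 on 13del-tg 3 (-0.16, SE 0.36). In the second the 13del-tg arrays lay on either side of the controls, so its mean describes neither. Over the 11 kept probe sets of the BH3-only genes 8 were negative and 3 positive, with a median of -0.30. Of these 8, 5 were from Bcl2l11 and 2 from Bid, and over all probe sets 58.6% were negative. Over the 13 kept probe sets of the anti-apoptotic genes 6 were negative and 7 positive, with a median of 0.0072. The difference between these roles was not tested, since probe sets of 1 gene are not independent.

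**Figure D3:**
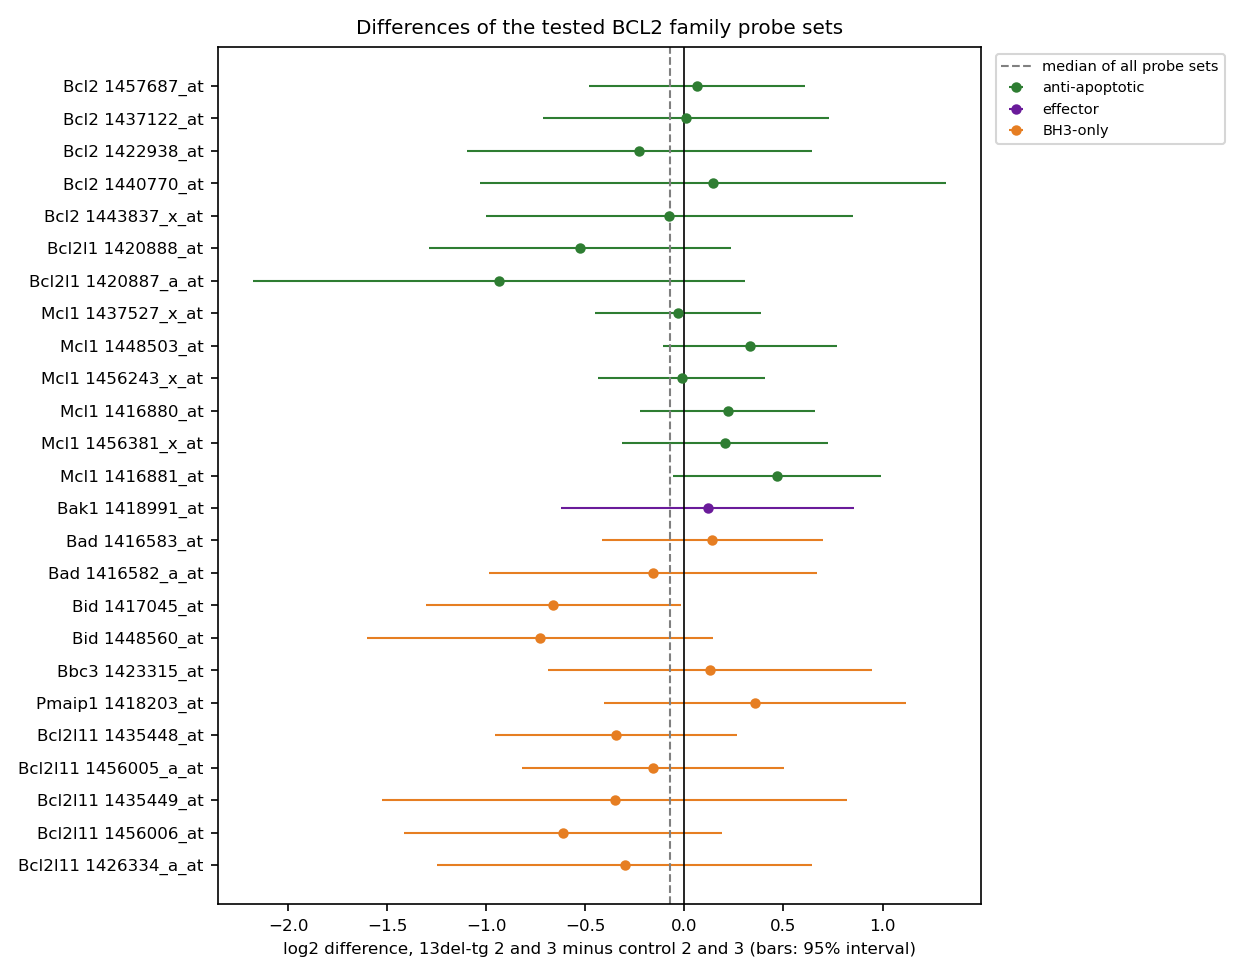
Log2 difference of each of the 25 tested probe sets, 13del-tg 2 and 3 minus controls 2 and 3, with 95% intervals from limma, coloured by role, and the median of all probe sets as a dashed line. The interval of 1417045_at (Bid), -1.30 to -0.020, is the single one that leaves out 0, before any adjustment.

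The calvaria are a mixture of cells, and in such bulk samples fewer cells of a type cannot be told apart from less RNA per cell. Erythroid markers were lower on both 13del-tg arrays in 10 of 10 genes tested, with a median difference of -2.11. In limma 10 reached 0.05 before adjustment and 0 after it. Their summed signal was 16999 and 20321 in controls, 3829 and 6257 in 13del-tg and 10866 on the shared array. B cell markers were negative in 11 of 11, with a median of -1.44 and sums of 10189 and 10875 against 3076 and 6020, with 7998 on the shared array. Neutrophil markers had sums of 44659 and 64180 in controls, 19267 on 13del-tg 2 and 59732 on 13del-tg 3, so these overlapped, and the median of -0.74 was 0.12 without 13del-tg 2. No tested marker of either list was at 0 on any array, and Hba-a1 was the 1 erythroid gene below the filter.

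The Bid, Bcl2l11 and Bcl2l1 differences had the same negative sign as those of the erythroid and B cell markers. That sign does not single out these lists. Negative as well were all tested neutrophil, megakaryocyte, osteoclast, chondrocyte and pineal and photoreceptor markers, and 58.6% of all probe sets. The erythroid and B cell sums were lower on 13del-tg 2 than on 13del-tg 3. Bid 1417045_at was 254.2 and 253.8 on these arrays, 1448560_at was 68.1 and 88.2, and 1447873_x_at, below the filter, was 26.8 and 37.5. Bcl2l1 1420888_at was lower on 13del-tg 2, and 1420887_a_at on 13del-tg 3. The part of marrow cells in the Bid, Bcl2l11 and Bcl2l1 differences was not tested. Skeletal muscle markers had a sum of 27059 on control 3, against 186772 to 263593 on control 2 and both 13del-tg arrays, and their median of 1.70 was 0.27 without control 3. Control 3 is also the array on which every Bcl2l11 probe set peaked. It had the highest sums of erythroid (20321), B cell (10875), neutrophil (64180), macrophage (32503), osteoclast (96476) and pineal and photoreceptor markers (10452). The other lists peaked on other arrays, and whether any of these go with Bcl2l11 was not tested. Osteoclast markers were negative in 10 of 10 (median -0.36), where 58.8% of all genes were negative. Their sums were 85197 and 96476 against 65157 and 83214. Without 13del-tg 2 the osteoclast list was negative in 7 of 10 (median -0.16), and with the shared array as a control in 7 of 10 (-0.22). Osteoblast markers were positive in 5 of 7 (median 0.087), a median that was -0.0098 with quantile normalization.

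The remaining lists were megakaryocyte (median -0.81, 6 of 6 negative), macrophage (-0.038, 6 of 10, and 0.15 with arrays centred on their medians), osteocyte (-0.068, 4 of 7, and 0.12 when centred), chondrocyte (-0.91, 13 of 13) and endothelial markers (-0.23, 6 of 8). Leaving out 1 array moved these: without 13del-tg 2 the megakaryocyte median was -0.15, the macrophage median 0.17 and the osteocyte median 0.17, and without 13del-tg 3 the endothelial median was 0.065 and the chondrocyte median -0.37, which was -1.67 without control 3. Pineal and photoreceptor markers were negative in 9 of 9 (median -4.12), and 4 passed the adjusted threshold, Chgb, Tph1, Cdhr1 and Pde6g. Their sums were 5066 and 10452 in controls, 533.6 and 556.7 in 13del-tg and 699.3 on the shared array. The part of such tissue in the differences of the members was not tested.

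**Figure D4:**
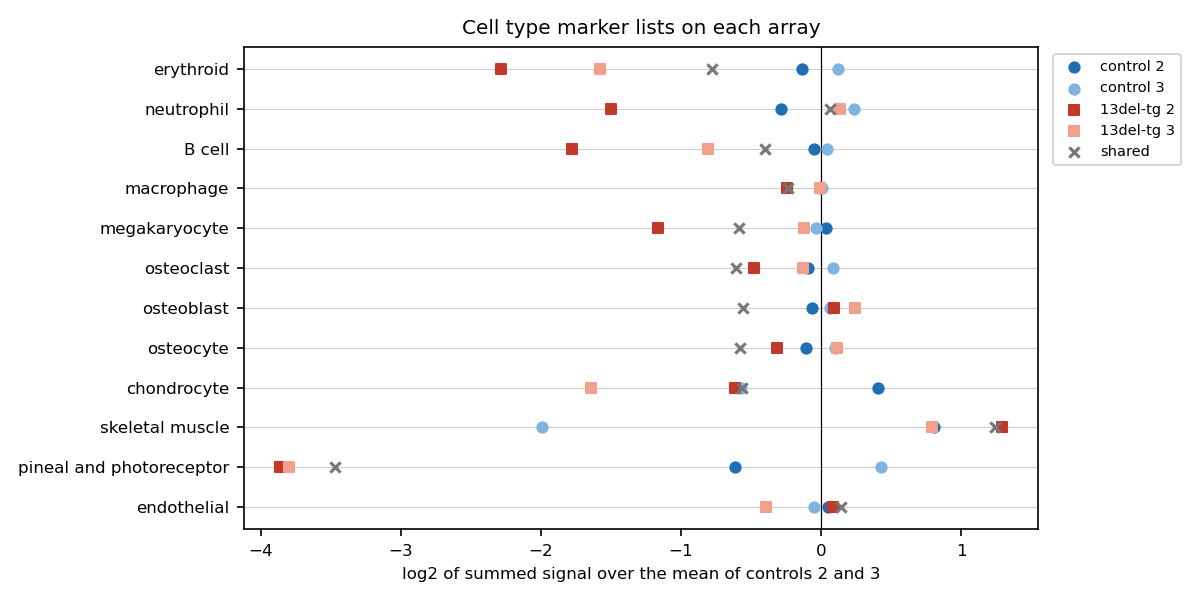
Summed signal of each cell type marker list on each array, as log2 over the mean of controls 2 and 3. Erythroid and B cell squares lie left of the control circles, with the shared array between them, and control 3 is apart in skeletal muscle.

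Around the members, 8 lists of cell death genes were read, with 1 probe set a gene, the brightest kept one. Over 12859 genes 41.2% were positive and 58.8% negative, with a median of -0.074, 39.7% had groups that did not overlap, and before adjustment 1.54% were higher and 4.68% lower at 0.05 in limma. Centring the arrays on their medians moved the median of all probe sets to 0.11, and it turned the list medians that follow for other BCL2 family genes (0.15), apoptosome genes (0.16), inhibitors of apoptosis (0.041), the p53 list (0.13) and the transcription and stability list (0.13). The apoptosome median was also positive with quantile normalization (0.044) and without 13del-tg 2 (0.12), and without 13del-tg 3 the medians of the p53 list (0.11) and of the transcription and stability list (0.051) were positive. The adjusted threshold, passed by 0.0700% of these genes, was passed by 0 of the 85 genes in these lists. Other members of the BCL2 family were 3 positive and 5 negative of 8, with a median of -0.036. Bmf, a BH3-only gene released from the cytoskeleton under stress, had 409.1 and 550.7 in controls, against 341.9 and 326.1 in 13del-tg (-0.49, SE 0.28). Bik, a BH3-only gene of the endoplasmic reticulum, had 61.5 and 115.6 against 141.9 and 133.9 (0.61, SE 0.41), near the filter level. Bcl2l13, a receptor for mitochondrial clearance, had -0.35 (SE 0.28).

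Downstream of the pore, apoptosome and caspase genes were 5 positive and 6 negative of 11, with a median of -0.023. Casp9, the caspase of the apoptosome, had 620.1 and 722.4 in controls, 448.6 and 509.7 in 13del-tg and 363.7 on the shared array (-0.47, SE 0.25). Cycs, which encodes cytochrome c, had 9436.2 on control 2, 4253.5 on control 3 and 10542.9 and 8899.8 in 13del-tg (0.61, SE 0.34), and it was 0.038 without control 3. The nuclease gene Endog had 896.4 and 614.1 in controls, 846.6 on 13del-tg 2 and 1421.6 on 13del-tg 3, which also overlapped (0.55, SE 0.32), and the difference was 0.19 without 13del-tg 3. Inhibitors of apoptosis and their antagonists were 2 positive and 6 negative of 8 (median -0.14). Birc5, survivin, which also serves cell division, had -0.73 (SE 0.33) from 2757.0 and 2832.9 to 1154.2 and 2425.4, and -0.20 without 13del-tg 2. Birc3 had -0.49 (SE 0.28), and its other probe set was positive, and Diablo, which encodes the antagonist SMAC, had 0.17 (SE 0.22).

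Upstream of Bid, the death receptor list was 1 positive and 6 negative of 7, with a median of -0.25, and 2 genes were lower with a p under 0.05 before adjustment. The median was -0.063 with arrays centred on their medians and -0.42 without control 3. Tnfrsf1b, the second receptor of tumour necrosis factor, had 288.4 and 337.8 in controls, 168.8 and 162.1 in 13del-tg and 253.8 on the shared array (-0.86, SE 0.31, limma adjusted p = 0.88). Cflar, which encodes FLIP, the inhibitor of caspase-8, had 663.1 and 619.4 against 461.0 and 330.8, with 676.4 on the shared array (-0.69, SE 0.28), and its 5 probe sets differed in sign. Tnfsf10, which encodes the death ligand TRAIL, had -0.41 (SE 0.34). Whether these values go with the lower Bid values or the lower marrow markers was not tested.

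The p53 list, whose factor drives Bbc3 and Pmaip1, was 5 positive and 8 negative of 13, with a median of -0.051. Sesn1, a stress-induced regulator of growth signalling, had 2744.3 and 3239.2 against 3422.9 and 4817.1 (0.44, SE 0.23). Ccng1, a direct p53 target, had 3979.0 and 1467.5 in controls, against 3866.2 and 3575.4 in 13del-tg (0.62, SE 0.40), which turned to -0.097 without control 3, and Mdm4, an inhibitor of p53, had 0.38 (SE 0.30). No gene of the p53 list passed the threshold.

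Regulators of the family in endoplasmic reticulum stress were 6 positive and 4 negative of 10, with a median of 0.15 that was 0.014 with quantile normalization and 0.021 without 13del-tg 3. A single list member, Ddit3, had a p under 0.05 before adjustment. Ddit3, which encodes CHOP, had 650.4 and 545.9 in controls, 906.4 and 1337.6 in 13del-tg and 615.9 on the shared array (0.87, SE 0.27, limma adjusted p = 0.88), and its other probe set was negative. Trib3, a CHOP target, had 132.4 and 122.7 against 175.3 and 264.5 (0.69, SE 0.36), with probe sets of both signs, and Chac1, an enzyme that breaks down glutathione, had 480.8 and 496.6 against 818.9 and 557.6 (0.46, SE 0.28). Beside these, Bcl2l11, a known CHOP target, had the negative differences given above and Bbc3 had groups that overlapped. None of these genes passed the threshold, and a link between Ddit3 and either gene was not tested.

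Regulators of the family's transcription and protein stability were 6 positive and 10 negative of 16, with a median of -0.055. Pim3, a kinase of the group that phosphorylates BAD, had 1180.7 and 1500.0 in controls, 2067.4 and 2858.1 in 13del-tg and 994.2 on the shared array (0.86, SE 0.245, limma adjusted p = 0.83), and both of its probe sets were positive. Foxo1 and Foxo3, the forkhead factors that drive Bcl2l11 in other cells, had -0.42 (SE 0.23) and -0.39 (SE 0.24). For Foxo3 the controls were 4659.3 and 3106.7 and the 13del-tg arrays 2875.7 and 2931.8, and the difference was -0.097 without control 2. Partners at the mitochondrial outer membrane were 10 positive and 2 negative of 12, with a median of 0.18. Leaving out control 3 gave a median of 0.052, with 8 of 12 positive, and counting the shared array as a control gave 0.094. The smallest p-values belonged to Bag1, a BCL2-binding cochaperone, at 0.34 (SE 0.21), Hspa9, a mitochondrial chaperone, at 0.27 (SE 0.22, with probe sets of both signs), and Mtch2, a receptor for BID, at 0.25 (SE 0.21). Hspa9 was 0.078 without 13del-tg 2, and Mtch2 was 0.091 without control 3. None of the 12 had an unadjusted p under 0.05.

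**Figure D5:**
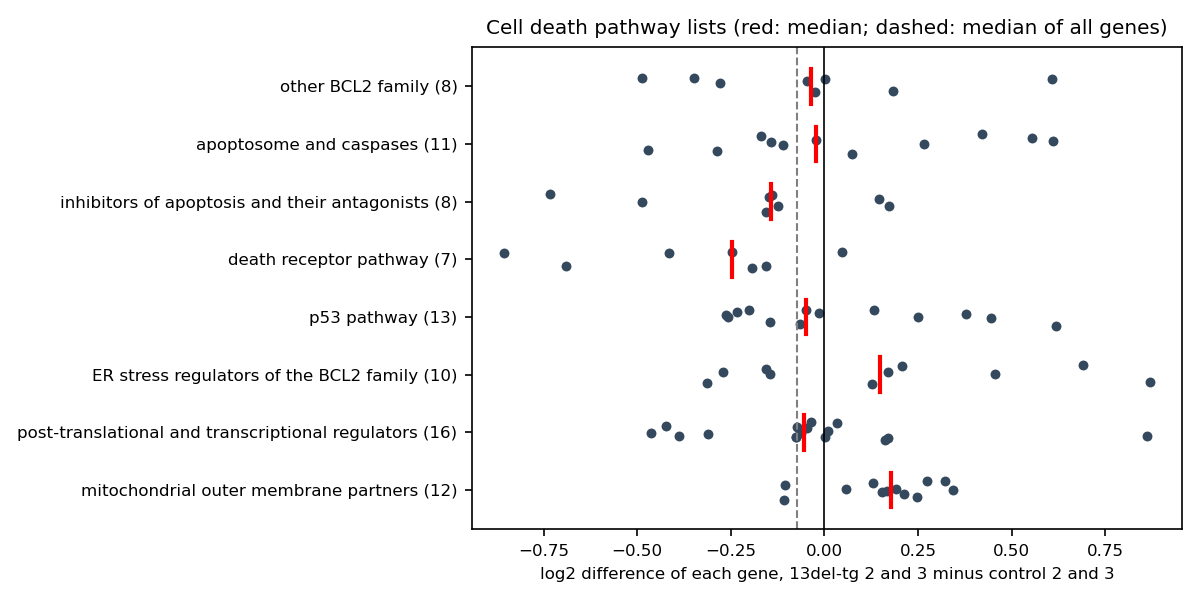
Log2 difference of each tested gene in the 8 cell death lists (number of genes in brackets), with list medians in red and the median of all genes dashed. The partners of the mitochondrial outer membrane lie mostly right of 0 (median 0.18) and the death receptor genes mostly left (median -0.25), and 0 genes passed the adjusted threshold.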

How the data were processed

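The deposited values are linear intensities, 1 per probe set and array, and the submitters' processing notes name MAS5 without a version. Trimmed by 2% at both ends, the mean of the deposited intensities was 500.003 on every array. They were used as log2(signal + 16), not normalized further. Leaving out 64 control probe sets, those from the 40th percentile of the mean over 5 distinct arrays upward entered limma 3.58.1 under R 4.3.3 (lmFit, then eBayes using a trend). Tests were two-sided, and Benjamini-Hochberg values over 27022 probe sets were called below 0.05, on 2 residual and 6.01 prior degrees of freedom. The labels do not say that replicates are separate animals, so p-values measure only the spread between these samples, and the number of arrays limits precision. The code was tested on simulated arrays, 2 against 2, in 10 runs with 200 changed probe sets and the fitted variances. Log2 changes of 1, 2, -2 and 4 were called in the right direction for 25.0%, 92.2%, 76.0% and 100% of them. On average 17.2% of the calls were false, above the threshold of 0.05.

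In the platform annotation 34945 of 45037 probe sets had 1 symbol, 932 several and 9160 were unnamed here. By gene number, 34741 matched RefSeq. Every member probe set is reported. The 3 genes of lowest p are named for each pathway list, and for cell types those that passed. Members and lists were chosen with earlier results of these data known. Alternatives changed the pseudocount, filter, normalization, variance model, replicate block, number of probe sets per gene, label of the shared array, or left out 1 array.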

Additional observations from a re-analysis of the deposited data

How the results depend on the processing

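The count of BCL2 family probe sets past the threshold was 0 by limma as reported and in each of 17 alternatives, and the smallest adjusted p of a member over these was 0.39, with the replicate block. The counts over all probe sets, 2 higher and 8 lower, moved widely. They were 1 and 1 with a pseudocount of 1, with the 60th percentile filter and with quantile normalization, 1 and 0 without a filter, without the trend and when the shared array counted as a control, and 0 and 0 when it counted under both labels. When it counted as 13del-tg alone they were 0 and 8. With a pseudocount of 64, 5 were lower, robust eBayes gave 18, and centring arrays on their medians gave 3 and 21. Leaving out 1 array gave 1 to 199 higher and 5 to 43 lower, the highest of both without control 2, when the lone array of a group is taken to vary like the others. Centring moved the median of all probe sets from -0.075 to 0.11, and the split at an unadjusted p under 0.05 from 384 higher and 1006 lower to 848 and 495. Beside that shift, the median of the members went from -0.033 to 0.15.

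The labels give no sign that equal replicate numbers mark a shared litter, and deviations of same-numbered arrays correlated at 0.22 over probe sets. With the number as a replicate block, 330 probe sets were higher and 338 lower. Ddit3 (limma adjusted p = 0.0476) and Pim3 (0.0131) passed in that fit, and 0 members did. The block adds a coefficient on the same arrays, which leaves fewer residual degrees of freedom than the 2 of the reported fit. Of the genes that passed as reported, Col10a1 did not pass in 2 alternatives, Chgb in 4, Tph1 in 6, Cdhr1 in 9 and Pde6g in 12.

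The sign turned with arrays centred on their medians for Bcl2 1443837_x_at (0.11), Mcl1 1437527_x_at (0.15) and 1456243_x_at (0.17), Bad 1416582_a_at (0.027) and Bcl2l11 1456005_a_at (0.025). For Bcl2 1443837_x_at it also turned with quantile normalization (0.099) and when the shared array was a control (0.15). When that array was 13del-tg alone it turned for Bcl2 1437122_at (-0.35) and Bbc3 (-0.25). When 1 array was left out, the differences ran from -0.022 to 0.15 for Bcl2 1457687_at, -0.23 to 0.24 for 1437122_at, -0.50 to 0.046 for 1422938_at, -0.54 to 0.83 for 1440770_at and -0.30 to 0.15 for 1443837_x_at. They ran from -0.094 to 0.028 for Mcl1 1437527_x_at, -0.044 to 0.017 for 1456243_x_at, -0.014 to 0.25 for Bak1, -0.057 to 0.34 for Bad 1416583_at, -0.69 to 0.37 for 1416582_a_at and -0.23 to 0.49 for Bbc3. They ran from -0.53 to 0.21 for Bcl2l11 1456005_a_at, -1.02 to 0.31 for 1435449_at and -0.097 to 1.33 for Ccng1. The causes were not tested.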
